A study of Homo sapiens with 23 samples.

Results

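The 35 genes described here code for the enzymes and regulators with which a cell makes cholesterol and fatty acids. They were taken as a fixed list of gene symbols, 35 of the 19775 genes that have a probe set of their own on the array. This list and the other gene lists were chosen with earlier results of these data known. Counts from them stand beside shares of all genes as a description, not as an independent test. Where a gene has several probe sets the brightest on average, on the log2 scale, stands for it. All 35 were measured, and 34 had a geometric mean signal of at least 100 units over all arrays. ACACB lay below that limit, and MVD and TM7SF2 were only a little above it, so their values rest on dim probe sets.

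RNA came from MCF-10A-ER-Src cells, a line of non-transformed human mammary epithelial cells that carries Src kinase joined to the part of the estrogen receptor that binds its ligand, so that a tamoxifen derivative switches the kinase on. Every group was grown in DMEM/F12 medium with 5% charcoal-stripped horse serum, 20 ng/ml EGF, 0.5 µg/ml hydrocortisone, cholera toxin and 10 µg/ml insulin. Cells were transfected for 48 h with 25 nM of a non-targeting siRNA pool (siSCM, called siNEG in the labels) or of a pool against the transcription factor STAT3 (siSTAT3). They then received the vehicle ethanol (EtOH) or 1 µM 4-hydroxytamoxifen (TAM) for 4 or 24 h. The 8 groups hold 3 arrays each, except that siSTAT3 cells with TAM for 24 h have 2 (replicates 2 and 3), which makes 23 arrays. The methods call them biological replicates and the labels do not say that they came from separate cultures, so p-values measure the spread between these arrays, which may be technical. Tamoxifen derivatives are also known to bind the sterol isomerase EBP, and since every TAM group carried the Src fusion, effects of the kinase and of the ligand itself cannot be told apart here.

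The siRNA lowered its target on every array. STAT3 signal was 4130 ± 168 units (SD, n = 3) in siSCM EtOH 24 h and 6120 ± 570 (n = 3) in siSCM TAM 24 h, against 398 ± 87.1 (n = 3) and 400 ± 57.5 (n = 2) with siSTAT3, which is 10.5-fold and 15.3-fold lower. At 4 h it was 12.2-fold lower in EtOH and 13.1-fold lower in TAM. Median signal per array lay between 73.5 and 85.3 units. The basal mammary markers KRT5, KRT14, EGFR, CDH3, LAMB3 and ITGB4 were above 100 units on every array. Of 5 adipocyte markers, 4 were below 100 on all of them (ADIPOQ, PLIN1, FABP4 and LEP). The other, CIDEC, ranged from 41.6 to 155 units.

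Cholesterol is built from acetyl-CoA through mevalonate, farnesyl diphosphate and squalene, which is closed into the sterol ring and then trimmed in the late sterol steps. Fatty acids start from the same acetyl-CoA, which ACLY releases from citrate, and are lengthened and desaturated after synthesis. When membrane sterol is low, SCAP carries the precursors of the transcription factors SREBF1 and SREBF2 to the Golgi, where they are cut and released, and INSIG1 and INSIG2 hold SCAP back when sterol is plentiful. Many genes of both pathways, INSIG1 among them, are known targets of these factors, and growing epithelial cells need both products for new membrane.

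After 24 h of TAM these genes were on balance lower than in EtOH in siSCM cells and higher in siSTAT3 cells. In siSCM cells, 14 of the 35 genes fell and 1 rose, beside 9.31% of all genes that fell and 6.06% that rose. Their median log2 difference between TAM and EtOH was -0.31, and 29 of the 35 lay below 0, while the median over all genes was -0.04. In siSTAT3 cells none fell and 3 rose, beside 0.748% and 2.00% of all genes. At an unadjusted p under 0.05 these counts were 1 and 16. The share of all genes was not taken for them, so they cannot be read as particular to these genes. The median of the 35 genes there was 0.20, against -0.01 over all genes. The interaction, the difference between the 2 TAM effects (siSTAT3 less siSCM), was positive and past the test for 13 genes and negative for 1, beside 3.42% and 2.49% of all genes. Its median was 0.49 over the 35 genes and 0.03 over all genes. A gene was said to rise or fall when limma gave it an adjusted p under 0.05 (Benjamini-Hochberg over all 54675 probe sets), and all log2 values of differences below come from that fit.

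Well-measured genes pass more often than dim ones, so the same shares were also taken over the 10699 genes with a geometric mean of at least 100 units. There 15.8% fell and 9.69% rose in siSCM cells at 24 h, and the interaction was positive for 5.94% and negative for 4.04%. In siSTAT3 cells at 24 h 1.16% fell and 3.5% rose. Shares of all genes were not taken under the other settings that follow. For the 3 genes that rose in siSTAT3 cells the count depends on the spread estimate. It was 8 when the fit kept only probe sets with a mean of at least 100 units or used limma-trend, and 1 without siSTAT3 TAM 24 h replicate 3.

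**Figure D1:**
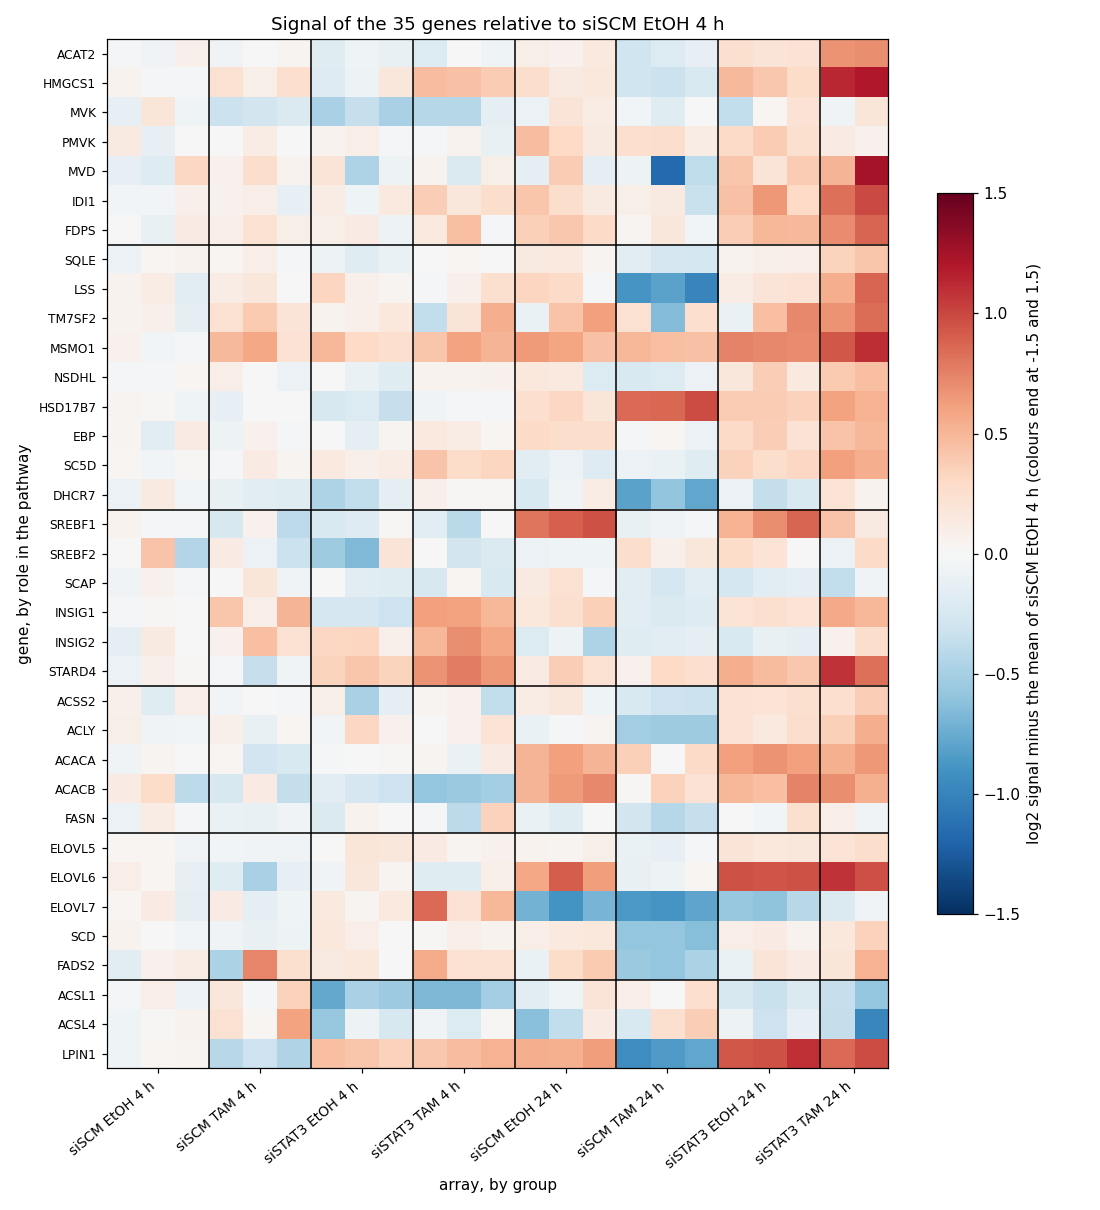
Log2 signal of the 35 genes (rows, grouped by role) on the 23 arrays (columns, by group), as the difference from the mean of siSCM EtOH 4 h, with red above and blue below. The 3 siSCM TAM 24 h columns are blue for LSS, DHCR7, SCD, ACLY and LPIN1, and the 2 siSTAT3 TAM 24 h columns are red for most sterol genes, up to HMGCS1 at 5010 and 5240 units.

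The same contrast stood in the order of the arrays. For 17 of the 35 genes both siSTAT3 TAM 24 h arrays were above the other 21, beside 3.06% of all genes. For 6 of the 35 the 3 siSCM TAM 24 h arrays were below all the others, beside 4.98% of all genes. Those 6 were HMGCS1, LSS, DHCR7, ACLY, SCD and LPIN1. For 23 of the 35 genes the TAM effect at 24 h was below 0 in siSCM cells and above 0 in siSTAT3 cells. The share of all genes with this order of signs was not taken, so this count cannot be read as particular to these genes. The siSTAT3 TAM 24 h group has 2 arrays, and the 3′ to 5′ signal ratio of ACTB, a sign of RNA integrity, was 1.21 on both, against 1.21 to 1.44 over all 23 arrays. Its part in the result was not tested.

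Among the 7 genes of the early mevalonate steps, all had a TAM effect below 0 in siSCM cells at 24 h, and 2 of them, HMGCS1 and ACAT2, fell. HMGCS1 makes the HMG-CoA that feeds mevalonate. It read 2730, 2510 and 2540 units in siSCM EtOH 24 h and 1850, 1830 and 1940 with TAM. In siSTAT3 cells it read 3190, 3010 and 2760 with EtOH and 5010 and 5240 with TAM. The groups did not overlap in either cell population, and they moved in opposite directions. HMGCS1 fell by 0.47 on the log2 scale in siSCM cells (SE 0.09, adjusted p = 0.00177 in limma) and rose by 0.78 in siSTAT3 cells (SE 0.10, adjusted p = 0.000318), so that the interaction was 1.25 (SE 0.13, adjusted p = 1.94e-05).

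ACAT2, which joins acetyl-CoA units in the first step, read 3730, 3660 and 3880 units in siSCM EtOH 24 h and 2840, 3040 and 3230 with TAM. With siSTAT3 it read 4130, 4020 and 4060 in EtOH and 5570 and 5680 with TAM, the 2 highest of all 23 arrays. It fell by 0.31 in siSCM cells and rose by 0.47 in siSTAT3 cells, and its interaction was 0.77 (SE 0.11, adjusted p = 0.000289). The fall had an adjusted p of 0.0529 without siSCM TAM 24 h replicate 1, and the rise one of 0.0692 without siSTAT3 TAM 24 h replicate 3.

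IDI1, the isomerase that makes the second isoprenoid building block, and FDPS, the synthase of farnesyl diphosphate, had TAM effects that differed between siRNAs without passing in either cell population alone on the probe sets used here. IDI1 differed by -0.31 in siSCM and 0.44 in siSTAT3 cells, with an interaction of 0.75 (adjusted p = 0.0337), which was lost in 7 of the 23 fits that left out 1 array. Another IDI1 probe set, with a mean of 5170 units, passed in both, at -0.44 (adjusted p = 0.00221) and 0.40 (adjusted p = 0.0416), whereas with the median over all IDI1 probe sets the interaction was 0.39 (adjusted p = 0.0804). FDPS differed by -0.29 and 0.34, with an interaction of 0.64 (adjusted p = 0.0397), which was lost in 14 of the 23 fits that left out 1 array. The kinases MVK and PMVK, which phosphorylate mevalonate in turn, did not pass, with effects of -0.15 and -0.10 in siSCM cells and 0.10 and -0.21 in siSTAT3 cells. Other MVK probe sets, with means of 269, 195 and 40 units, differed by -0.66, -0.44 and 0.39 in siSCM cells. Of these only the brightest passed (adjusted p = 0.0392 in limma). MVD, the decarboxylase that follows these kinases, had a mean of 89.7 ± 31.5 units in siSCM TAM 24 h (SD, n = 3) and 237 ± 83.4 in siSTAT3 TAM 24 h (n = 2). Its interaction of 1.12 had an SE of 0.39 and did not pass (adjusted p = 0.151).

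Of the 9 genes of the sterol ring and late sterol steps, 4 fell in siSCM cells and 1 rose. LSS, which closes the sterol ring, read 2470, 2410 and 1950 units in siSCM EtOH 24 h and 1070, 1130 and 995 with TAM, the lowest values of all 23 arrays. In siSTAT3 cells the values were 2120, 2250 and 2280 in EtOH and 2880 and 3620 with TAM. No group overlapped its partner. LSS fell by 1.09 on the log2 scale in siSCM cells, which is 2.12-fold (SE 0.12, adjusted p = 7.15e-06 in limma). In siSTAT3 cells it differed by 0.54 (SE 0.14, adjusted p = 0.05), which did not pass. Its interaction of 1.63 (SE 0.18, adjusted p = 2.69e-05) was the largest of the 35 genes. The fall was 0.64 and did not pass with the median over its 3 probe sets (adjusted p = 0.0591), of which the others, at means of 61.5 and 76 units, were dim.

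DHCR7, which makes cholesterol from its last precursor, read 834, 945 and 1060 units in siSCM EtOH 24 h and 562, 651 and 569 with TAM. The siSTAT3 arrays read 917, 762 and 831 in EtOH and 1130 and 1010 with TAM. The TAM arrays were thus the lowest of the siSCM cells and the highest of the siSTAT3 cells at 24 h. DHCR7 fell by 0.67 in siSCM cells (SE 0.11, adjusted p = 0.000372 in limma), and its interaction was 1.03 (SE 0.16, adjusted p = 0.000857).

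SQLE, the epoxidase that readies squalene for ring closure, fell by 0.33 in siSCM cells and differed by 0.29 in siSTAT3 cells, with an interaction of 0.63 (adjusted p = 0.001). EBP, the sterol isomerase named above, fell by 0.30 and differed by 0.18, with an interaction of 0.48 (adjusted p = 0.0382). The EBP calls were less firm, since the fall was lost in 5 and the interaction in 9 of the 23 fits that left out 1 array. With the median over its probe sets the fall was 0.17 (adjusted p = 0.499) and the interaction 0.41 (adjusted p = 0.308), and neither passed. Another EBP probe set, with a mean of 2330 units, passed in both, at -0.35 (adjusted p = 0.00827 in limma) and 0.51 (adjusted p = 0.0248). Those with means of 180 and 68.6 units passed in neither. NSDHL and MSMO1, which act in removing methyl groups from the ring, did not pass, with interactions of 0.40 and 0.39. Another NSDHL probe set, with a mean of 1010 units, had an interaction of 0.70 that passed (adjusted p = 0.0346 in limma). Its difference of -0.37 in siSCM cells did not pass (adjusted p = 0.0561). SC5D, a desaturase of the same route, did not pass either, with an effect of 0.02 in siSCM cells and 0.28 in siSTAT3 cells. TM7SF2, a sterol reductase, had effects of -0.37 and 0.40 with SE of 0.26 and 0.30.

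HSD17B7, a sterol ketone reductase, was the 1 gene of its group that rose in siSCM cells. It read 2420, 2520 and 2300 units in siSCM EtOH 24 h and 3660, 3690 and 3980 with TAM. With siSTAT3 it read 2630, 2630 and 2570 in EtOH and 3080 and 2910 with TAM. The 3 siSCM TAM arrays were the highest of all 23. HSD17B7 rose by 0.64 in siSCM cells (SE 0.07, adjusted p = 4.44e-06 in limma), differed by 0.20 in siSTAT3 cells, and had the only negative interaction that passed, -0.45 (SE 0.10, adjusted p = 0.0186). That interaction had an adjusted p of 0.0514 without siSCM TAM 24 h replicate 3 and 0.109 without siSTAT3 TAM 24 h replicate 3. The human genome holds near copies of this gene, so its probe set may also read transcripts of those.

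**Figure D2:**
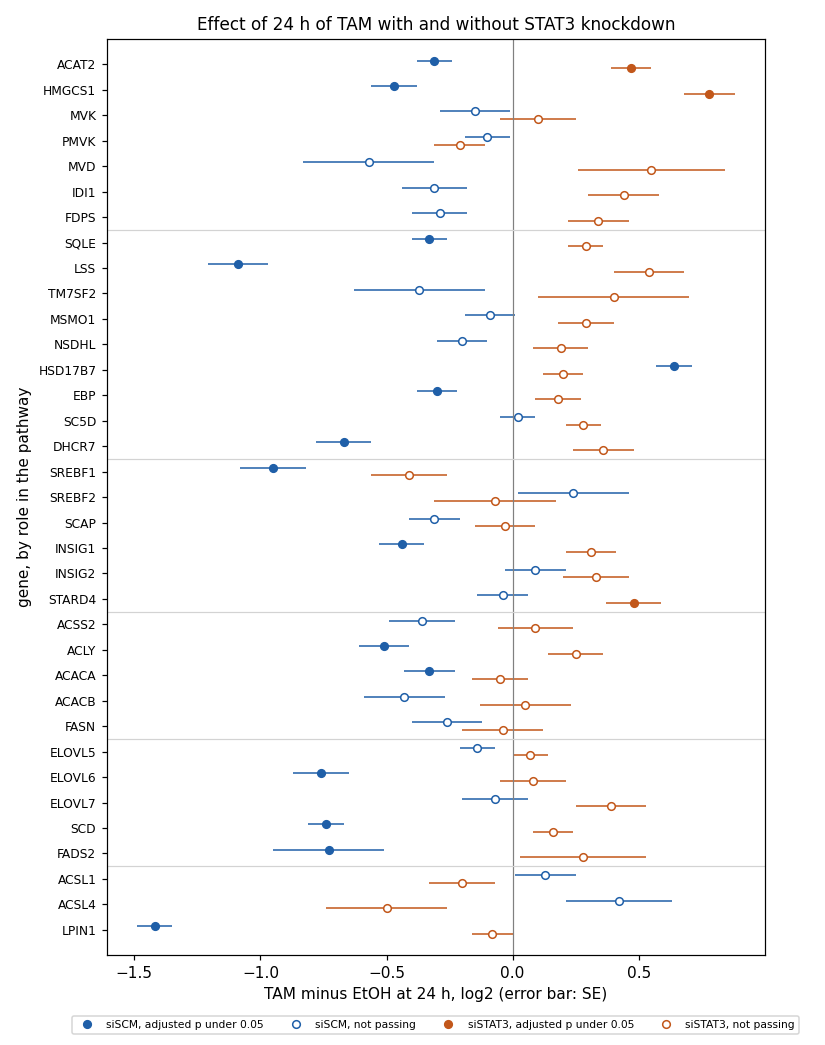
Log2 difference between TAM and EtOH at 24 h for the 35 genes, in siSCM (blue) and siSTAT3 cells (orange), with error bars of 1 SE and filled points where the adjusted p was under 0.05. Blue points lie left of 0 for 29 genes, down to -1.42 for LPIN1, and the orange point lies to the right of 0 for most, up to 0.78 for HMGCS1.

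Promoter sequences are shown here for HMGCS1, LSS and INSIG1, which fell together in siSCM cells, and for SREBF2, which did not pass but holds the sterol element. Sterol-responsive promoters are known to pair such an element with a box for the factor NF-Y. RefSeq promoters (GRCh38.p14, 250 bases before to 50 after each start) were held for 32 of the 35 genes, at 50 starts. The sterol element TCACNCCAC, searched on both strands, was found at 2 of these 50 starts (4%), of SREBF2 and ACSL1, and at 1.13% of all 35116 promoters. The NF-Y box CCAAT was found at 28 of the 50 starts (56%) and at 34.6% of all promoters, on either strand. The E-box-like CANNTG was found at 28 starts (56%) and 68.7% of all promoters, with 2 of its 49 matches overlapping an NF-Y box. The STAT site TTCNNNGAA was found at 2 starts (4%) and 7.66% of all promoters. The 250 bases before the start follow for HMGCS1 (chr5:43313413-43313662, minus strand, the start farthest upstream), LSS (chr21:46228775-46229024, minus strand), INSIG1 (chr7:155297628-155297877, plus strand) and SREBF2 (chr22:41832855-41833104, plus strand). They are given 5′ to 3′ on the strand of the gene, with NF-Y boxes and the sterol element in capitals.
HMGCS1: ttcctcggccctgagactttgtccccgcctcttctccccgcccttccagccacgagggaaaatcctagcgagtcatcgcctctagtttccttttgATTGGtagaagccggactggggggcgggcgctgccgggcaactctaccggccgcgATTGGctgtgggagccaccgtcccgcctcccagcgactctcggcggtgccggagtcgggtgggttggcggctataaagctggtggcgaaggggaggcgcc
LSS: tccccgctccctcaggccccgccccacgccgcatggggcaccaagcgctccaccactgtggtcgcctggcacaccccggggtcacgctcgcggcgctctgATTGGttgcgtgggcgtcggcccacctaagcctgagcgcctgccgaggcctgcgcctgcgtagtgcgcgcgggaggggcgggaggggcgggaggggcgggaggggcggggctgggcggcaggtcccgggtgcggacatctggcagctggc
INSIG1: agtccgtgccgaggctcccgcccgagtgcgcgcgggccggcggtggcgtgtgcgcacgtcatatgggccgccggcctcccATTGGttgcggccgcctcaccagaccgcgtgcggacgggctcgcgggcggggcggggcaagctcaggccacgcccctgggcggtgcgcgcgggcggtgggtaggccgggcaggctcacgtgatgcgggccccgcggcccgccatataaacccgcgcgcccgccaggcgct
SREBF2: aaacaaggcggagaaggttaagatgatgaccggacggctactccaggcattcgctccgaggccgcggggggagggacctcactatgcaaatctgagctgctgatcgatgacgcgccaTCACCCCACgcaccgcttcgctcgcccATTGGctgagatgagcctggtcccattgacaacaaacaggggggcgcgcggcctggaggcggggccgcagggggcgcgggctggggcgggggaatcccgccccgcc
HMGCS1 has 2 NF-Y boxes in this stretch and LSS, INSIG1 and SREBF2 have 1 each, all written here as the reverse complement. Of the 4, only SREBF2 also has the sterol element in these letters, which is why it was chosen, so element and response cannot be related across these 4. Other spellings of the element and bases outside the window were not searched. A match is a run of letters and was not tested as a binding site.

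The 6 regulators and sterol transport genes were divided. SREBF1, the member of the pair that mostly drives fatty acid genes, read 916, 982 and 1020 units in siSCM EtOH 24 h and 487, 506 and 519 with TAM. In siSTAT3 cells the values were 755, 851 and 960 in EtOH and 707 and 578 with TAM. TAM arrays were the lower ones in both cell populations, without overlap. SREBF1 fell by 0.95 in siSCM cells, 1.93-fold (SE 0.13, adjusted p = 7.71e-05 in limma), and differed by -0.41 in siSTAT3 cells (adjusted p = 0.219). Its interaction of 0.54 did not pass (SE 0.20, adjusted p = 0.182), so that its effect is not shown to differ between the siRNAs. With the median over its probe sets the fall was 0.72 and did not pass (adjusted p = 0.151).

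INSIG1, which retains SCAP and is itself a sterol-regulated gene, read 3520, 3740 and 4040 units in siSCM EtOH 24 h and 2840, 2720 and 2760 with TAM. The siSTAT3 arrays read 3660, 3730 and 3660 in EtOH and 4690 and 4450 with TAM. It fell by 0.44 in siSCM cells (SE 0.09, adjusted p = 0.00278 in limma) and differed by 0.31 in siSTAT3 cells (adjusted p = 0.161), with an interaction of 0.75 (SE 0.13, adjusted p = 0.00247). The groups stood apart in both cell populations, on opposite sides.

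SREBF2, SCAP and INSIG2 did not pass in any TAM comparison or interaction. SREBF2, the factor that mostly drives sterol genes, read 334, 339 and 341 units in siSCM EtOH 24 h and 428, 375 and 401 with TAM, and 431, 410 and 358 against 333 and 433 with siSTAT3. SCAP, the carrier of both factors, read 1310, 1400 and 1180 units in siSCM EtOH 24 h and 1060, 992 and 1070 with TAM, and 990, 1070 and 1090 against 921 and 1150 with siSTAT3. INSIG2 read 644, 706 and 541 units in siSCM EtOH 24 h and 655, 667 and 674 with TAM, and 632, 689 and 672 against 780 and 891 with siSTAT3. SREBF2 and SCAP did not overlap between TAM and EtOH in siSCM cells, with differences of 0.24 (SE 0.22) and -0.31 (SE 0.10, adjusted p = 0.0678).

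STARD4, which carries cholesterol between membranes, read 895, 1060 and 968 units in siSCM EtOH 24 h and 858, 1010 and 979 with TAM, groups that overlapped. With siSTAT3 it read 1200, 1140 and 1090 in EtOH and 1750 and 1460 with TAM, which were its 2 highest values. It rose by 0.48 in siSTAT3 cells (SE 0.11, adjusted p = 0.0421 in limma), and this call was lost in 15 of the 23 fits that left out 1 array. Its interaction was 0.52 (adjusted p = 0.08).

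**Figure D3:**
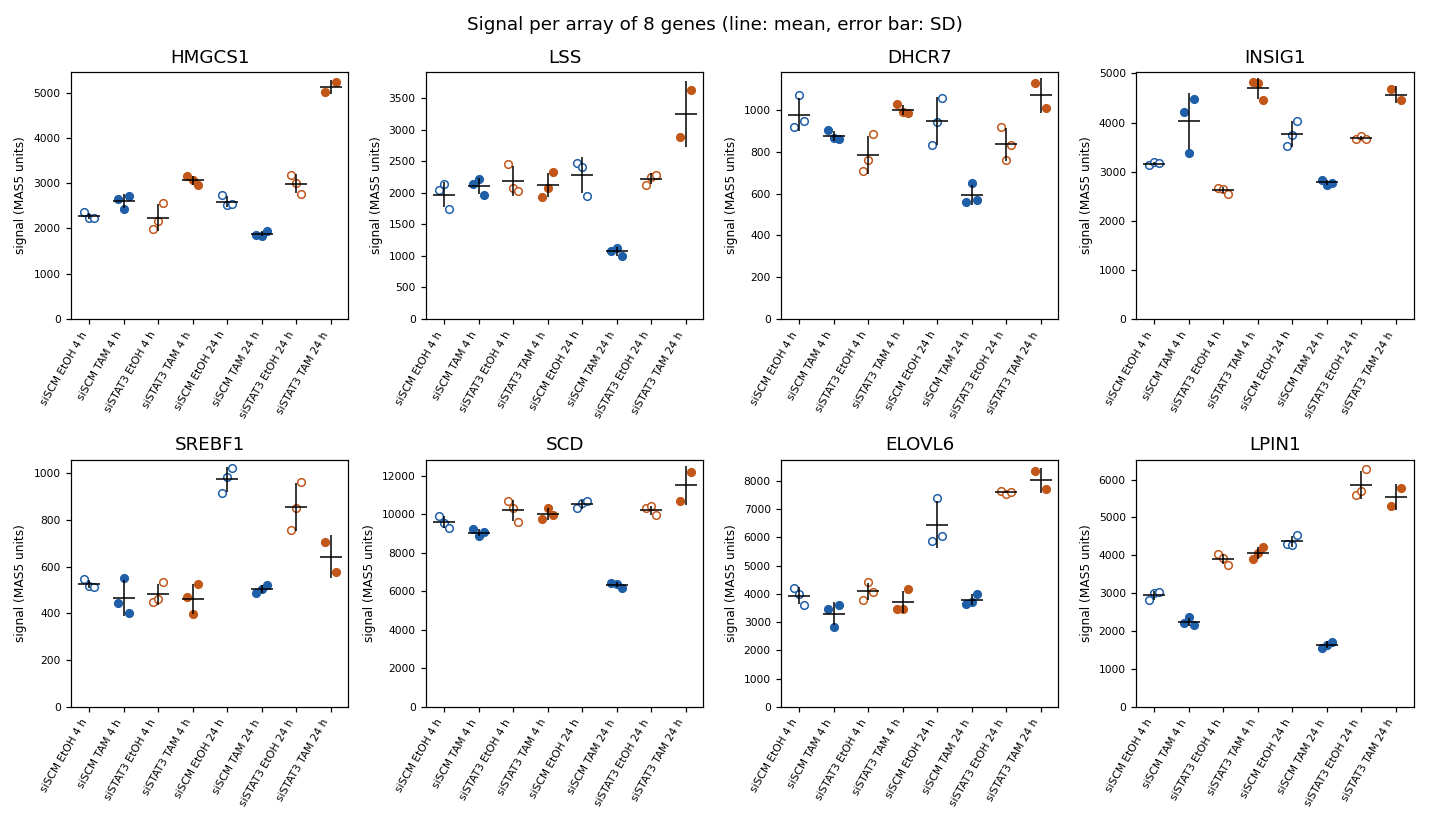
Signal (MAS5 units, axes from 0) of 8 genes on each array, by group, in siSCM (blue) and siSTAT3 cells (orange), with open points for EtOH and filled points for TAM, lines for group means and error bars for the SD. The filled blue points at 24 h are the lowest of the 24 h arrays in all 8 panels, and the filled orange points at 24 h are the highest of all for HMGCS1 and LSS but not for SREBF1 or LPIN1.

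All 5 genes of fatty acid synthesis had a TAM effect below 0 in siSCM cells at 24 h, and 2 fell. ACLY, which makes cytosolic acetyl-CoA for both pathways, fell by 0.51 (SE 0.10, adjusted p = 0.00158 in limma) from 10500 ± 489 to 7410 ± 47.5 units (SD, n = 3 each), and its interaction was 0.75 (SE 0.14, adjusted p = 0.00452). ACACA, which makes malonyl-CoA, read 2490, 2680 and 2490 units with EtOH and 2250, 1750 and 2140 with TAM. In siSTAT3 cells it read 2680, 2800 and 2690 against 2540 and 2740, groups that overlapped. It fell by 0.33 in siSCM cells (adjusted p = 0.0454), a call that held in only 5 of the 23 fits that left out 1 array. FASN, the synthase that builds the chain, differed by -0.26 in siSCM cells and -0.04 in siSTAT3 cells, and ACSS2, which activates acetate, by -0.36 and 0.09. Neither passed, and neither did the dim ACACB, the mitochondrial form of ACACA, at -0.43 and 0.05. Its other probe sets were dim too and disagreed. In siSCM cells the probe set with a mean of 67.2 units fell by 1.16 (adjusted p = 0.00148 in limma). The one with a mean of 78.9 units differed by 0.52 (adjusted p = 0.611). Their interactions were 1.29 (adjusted p = 0.0332) and -1.66 (adjusted p = 0.279).

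The 5 genes of elongation and desaturation were also all below 0 in siSCM cells, with a median of -0.73, and 3 of them fell. SCD, the desaturase that makes oleate, read 10300, 10600 and 10700 units in siSCM EtOH 24 h and 6420, 6390 and 6170 with TAM. In siSTAT3 cells the values were 10300, 10400 and 9970 in EtOH and 10700 and 12200 with TAM. The 3 siSCM TAM arrays were the lowest of all 23. SCD fell by 0.74, 1.67-fold (SE 0.07, adjusted p = 7.18e-07 in limma). Its interaction was 0.90 (SE 0.10, adjusted p = 2.99e-05), which did not pass with the median over its probe sets (adjusted p = 0.0544), whereas the fall did. Other SCD probe sets, with means of 1420 and 106 units, differed by -0.38 and 0.04 in siSCM cells (adjusted p = 0.177 and 0.977). Their interactions of 0.52 and 0.07 did not pass either. The interaction of one with a mean of 273 units was 0.78 and passed (adjusted p = 0.0286).

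ELOVL6, which lengthens palmitate to stearate, read 5870, 7400 and 6060 units in siSCM EtOH 24 h and 3640, 3720 and 4010 with TAM. The siSTAT3 arrays read 7660, 7550 and 7610 in EtOH and 8340 and 7700 with TAM, groups close to each other. It fell by 0.76 in siSCM cells (SE 0.11, adjusted p = 0.000179 in limma), and its interaction was 0.83 (SE 0.17, adjusted p = 0.00764), which had an adjusted p of 0.11 with the median over its probe sets. FADS2, a desaturase of polyunsaturated fatty acids, read 362, 468 and 508 units in siSCM EtOH 24 h and 263, 258 and 278 with TAM, and 362, 441 and 420 against 439 and 557 with siSTAT3. The siSCM groups did not overlap and the siSTAT3 groups did. FADS2 fell by 0.73 in siSCM cells (SE 0.22, adjusted p = 0.0407), a call that was lost in 11 of the 23 fits that left out 1 array, and its interaction of 1.01 did not pass (adjusted p = 0.118). ELOVL5 and ELOVL7, which lengthen polyunsaturated and other long chains, did not pass, with effects of -0.14 and -0.07 in siSCM cells and 0.07 and 0.39 in siSTAT3 cells.

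LPIN1, a phosphatidate phosphatase on the way to triglyceride, had the largest fall of the 35 genes. It read 4310, 4260 and 4540 units in siSCM EtOH 24 h and 1550, 1640 and 1720 with TAM. With siSTAT3 it read 5600, 5700 and 6290 in EtOH and 5310 and 5790 with TAM. The siSCM TAM arrays were the lowest of all 23, whereas the siSTAT3 groups overlapped. LPIN1 fell by 1.42 in siSCM cells, 2.67-fold (SE 0.07, adjusted p = 8.59e-10 in limma), differed by -0.08 in siSTAT3 cells, and had an interaction of 1.34 (SE 0.11, adjusted p = 1.5e-06). The acyl-CoA synthetases ACSL1 and ACSL4, which activate fatty acids, did not pass, with effects of 0.13 and 0.42 in siSCM cells and -0.20 and -0.50 in siSTAT3 cells.

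The 35 genes carry other probe sets besides the ones used above. Of the 19 with a mean of at least 100 units that belong to the genes called in siSCM cells at 24 h, 17 had the same sign, 14 of them also passed, and 0 passed in the opposite direction. For the interaction at 24 h these numbers were 21, 19, 14 and 0. For 24 against 4 h in EtOH they were 7, 7, 4 and 0 in siSCM cells and 11, 9, 5 and 0 in siSTAT3 cells. For TAM in siSTAT3 cells at 24 h they were 1, 1, 0 and 0. That 1 belongs to HMGCS1, has a mean of 780 units and differed by 0.65 (adjusted p = 0.165 in limma). It passed in siSCM cells (-0.76, adjusted p = 0.0123) and for the interaction (1.41, adjusted p = 0.00644).

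Other genes around the pathway were read from lists of related function, whose counts stand beside the same shares of all genes as above (9.31% fell, 6.06% rose, and the interaction was positive for 3.42%). With lists this short, a count of 1 is close to those shares. These lists too were chosen with earlier results of the data known, so their counts are a description. For citrate and NADPH supply, 4 of 5 measured genes fell in siSCM cells at 24 h and 0 rose, among them PC, pyruvate carboxylase (-0.80), IDH1, cytosolic isocitrate dehydrogenase (-0.61), and SLC25A1, the citrate carrier (-0.58), and the interaction was positive for 3 of the 5. In other fatty acid elongation and activation, 5 of 12 fell and 0 rose, among them ACSL5 (-1.19), SCD5 (-1.11) and HACD2 (-0.82), and the interaction was positive for 5. For fatty acid oxidation, the opposing route, 2 of 9 fell, CPT1A, its gatekeeper at the mitochondrion (-0.84), and HADHB (-0.50). For glycerolipid synthesis, 1 of 10 rose, DGAT2 (0.65), and 1 fell, GPAM (-0.62). Of 4 other sterol synthesis genes measured, ERG28 fell (-0.50) and 0 rose. In sterol sensing and trafficking, 2 of 12 rose and 1 fell, with the cholesterol exporter ABCA1 up by 3.67 (SE 0.25, adjusted p = 2.35e-08 in limma) and an interaction of -2.64 (adjusted p = 0.000338), SOAT1, which esterifies cholesterol, up by 0.26, and RNF139 down by 0.50.

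Markers of the cells' own type and of other types also moved at 24 h of TAM in siSCM cells. Of 8 basal markers listed, 6 were measured. Among these LAMB3 rose by 1.28 (adjusted p = 1.84e-07 in limma) and ITGB4 by 0.41 (adjusted p = 0.00138). EGFR fell by 0.35 (adjusted p = 0.00759) with an interaction of 0.48 (adjusted p = 0.0328), and KRT5, KRT14 and CDH3 did not pass. The summed basal signal was 51000 to 54300 units in siSCM TAM 24 h and 49600 to 54800 in siSCM EtOH 24 h, and 47400 to 54500 against 43400 to 45300 with siSTAT3. Among the 6 luminal markers the keratin KRT8 fell by 1.16 (adjusted p = 3.97e-07) with an interaction of 1.42 (adjusted p = 1.8e-05), and GATA3 fell by 0.43 (adjusted p = 0.00988), while 4 of the 6 were above 100 units on every array and PGR was below 100 on all. The summed luminal signal was 16300 to 18700 units in siSCM TAM 24 h, 20500 to 23600 in siSCM EtOH 24 h, 24500 to 26600 in siSTAT3 EtOH 24 h and 25500 to 32100 in siSTAT3 TAM 24 h. Of the 4 endothelial markers PECAM1 fell by 1.15 (adjusted p = 7.05e-05) with an interaction of 1.19 (adjusted p = 0.00602), while CDH5 and VWF were below 100 units on every array. The summed endothelial signal was 301 to 329 units in siSCM TAM 24 h and 457 to 533 in siSCM EtOH 24 h, and 397 to 419 against 370 to 499 with siSTAT3. Of the 5 fibroblast markers the pair above 100 units on every array went different ways. DCN rose by 0.39 (adjusted p = 0.00772) with an interaction of -0.66 (adjusted p = 0.00814), and COL1A1 differed by -0.18 with an interaction of 0.51 (adjusted p = 0.0338), while COL1A2, PDGFRB and LUM were below 100 units on every array. The summed fibroblast signal was 6800 to 7810 units in siSCM TAM 24 h and 5680 to 5920 in siSCM EtOH 24 h, and 2880 to 2940 against 3080 to 3110 with siSTAT3. Of 5 immune markers listed, 4 were measured, and none passed for TAM in siSCM cells or for the interaction. Only CD14 was above 100 units on every array, at 361 to 899. The summed immune signal was 779 to 851 units in siSCM TAM 24 h and 849 to 1060 in siSCM EtOH 24 h. With siSTAT3 it was 590 to 752 against 701 to 734. The part of these markers in the results was not tested, and a smaller share of some cells and less RNA per cell cannot be told apart in these bulk samples.

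After 4 h of TAM few of the 35 genes had moved. In siSCM cells 1 rose and 1 fell, beside 1.67% and 1.58% of all genes, and the median of the 35 was 0.00. In siSTAT3 cells 2 rose and 0 fell, beside 0.531% and 0.288% of all genes, with a median of 0.10. The interaction at 4 h passed for 0 genes, beside 0.192% of all genes in the positive and 0.329% in the negative direction. At an unadjusted p under 0.05 the count was 7 of the 35, all positive, and limma-trend called 2. For these last counts the share of all genes was not taken, so they cannot be read as particular to these genes.

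INSIG1 was the clearest of the early changes. It read 3130, 3190 and 3170 units in siSCM EtOH 4 h and 4220, 3390 and 4490 with TAM. In siSTAT3 cells the values were 2660, 2650 and 2550 in EtOH and 4830, 4810 and 4450 with TAM. TAM arrays were higher without overlap in both cell populations, and those of siSTAT3 cells lay closer together. INSIG1 rose by 0.84 in siSTAT3 cells, 1.79-fold (SE 0.09, adjusted p = 0.000265 in limma), and differed by 0.34 in siSCM cells (adjusted p = 0.0579). The interaction of 0.50 did not pass (adjusted p = 0.136). In siSCM cells, then, INSIG1 lay above its EtOH arrays at 4 h and below them at 24 h.

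HMGCS1 rose by 0.46 in siSTAT3 cells at 4 h (adjusted p = 0.0253), from 1990, 2160 and 2560 units to 3150, 3080 and 2960, and differed by 0.19 in siSCM cells, from 2360, 2240 and 2240 to 2660, 2430 and 2720. Its rise was lost in 5 of the 23 fits that left out 1 array. MSMO1, the methyl sterol oxidase, rose by 0.43 in siSCM cells (SE 0.10, adjusted p = 0.0271), from 8670, 8040 and 8170 units to 11600, 12400 and 9610, also lost in 5 such fits. LPIN1 fell by 0.39 in siSCM cells at 4 h (SE 0.07, adjusted p = 0.0064), from 2810, 3010 and 3020 units to 2200, 2370 and 2160. In siSTAT3 cells LPIN1 read 4030, 3920 and 3750 units with EtOH and 3890, 4070 and 4230 with TAM, groups that overlapped. Its interaction at 4 h was 0.45 (adjusted p = 0.0909). INSIG2 read 674, 815 and 747 units in siSCM EtOH 4 h and 778, 1020 and 870 with TAM, and 921, 927 and 784 against 1050, 1200 and 1110 with siSTAT3. Its differences of 0.25 and 0.36 did not pass. Nor did those of SREBF1 (-0.19 and -0.06), SREBF2 (-0.10 and 0.17) or SCAP (0.05 and -0.02), whose TAM and EtOH arrays overlapped at 4 h in both cell populations.

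Knockdown of STAT3 was also compared without TAM. In EtOH at 4 h 1 gene was higher and 2 were lower in siSTAT3 than in siSCM cells, beside 1.88% and 2.41% of all genes. The 3 calls became 8 with only probe sets of at least 100 units and 7 with limma-trend. Shares of all genes under those settings were not taken. At 24 h 2 were higher and 0 lower, beside 1.40% and 1.46% of all genes. LPIN1 was higher with siSTAT3 at both times, by 0.40 (adjusted p = 0.0051) and 0.42 (adjusted p = 0.00476), with the array values given above and no overlap. SC5D was higher at 24 h by 0.45 (SE 0.07, adjusted p = 0.00113), at 2770, 2610 and 2700 units against 1960, 2060 and 1910. It did not pass with the median over its probe sets (0.11, adjusted p = 0.969), of which the other, at a mean of 16.5 units, was dim. ACSL1 was lower at 4 h by 0.60 (SE 0.12, adjusted p = 0.00783), at 4060, 4920 and 4730 units against 6830, 7400 and 6520, and without siSTAT3 EtOH 4 h replicate 1 its adjusted p was 0.0503. HSD17B7 was lower at 4 h by 0.26 (adjusted p = 0.0457), at 1710, 1760 and 1600 units against 2090, 2050 and 1940, a call that held in only 3 of the 23 fits that left out 1 array. These comparisons share their EtOH arrays with the TAM effects above.

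Many of the genes were also higher at 24 than at 4 h in cells that received only EtOH. In siSCM cells 9 rose and 1 fell, beside 6.82% and 5.52% of all genes. In siSTAT3 cells 13 rose and 2 fell, beside 8.14% and 5.28% of all genes. Their medians were 0.14 and 0.33, against 0.02 and 0.06 over all genes. These differences join hours since the ethanol was added to hours in culture and density, which cannot be told apart, and they share the 24 h EtOH arrays with the TAM effects.

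SREBF1 led in siSCM cells, from 547, 517 and 514 units at 4 h to 916, 982 and 1020 at 24 h, a rise of 0.89 (SE 0.13, adjusted p = 0.000295 in limma). In siSTAT3 cells it rose by 0.83 (SE 0.13, adjusted p = 0.000445), from 450, 460 and 534 units. At 24 h with TAM the siSCM arrays were at 487, 506 and 519 units, close to the 4 h EtOH arrays. ELOVL6 rose by 0.70 in siSCM cells, from 4210, 4010 and 3610 units, and by 0.90 in siSTAT3 cells, from 3790, 4410 and 4050 (adjusted p = 0.000659 and 5.24e-05). Its siSCM TAM 24 h arrays were likewise near the 4 h values.

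ACACA rose by 0.54 from 1690, 1800 and 1760 units in siSCM cells and by 0.64 from 1710, 1760 and 1770 in siSTAT3 cells. The dim ACACB rose by 0.63 and 0.80, from 78, 86.7 and 54.4 units to 102, 112 and 118 in siSCM cells and from 64.4, 60.4 and 57.7 to 101, 98 and 120 in siSTAT3 cells. LPIN1 rose by 0.57 and 0.59, and MSMO1 by 0.56 and 0.37, with siSCM arrays of MSMO1 at 12900, 12500 and 11200 units at 24 h. HSD17B7 rose by 0.25 in siSCM cells and by 0.63 in siSTAT3 cells. ELOVL7 fell in both, by 0.77 and 0.64, from 722, 767 and 637 units to 432, 380 and 435 in siSCM cells and from 781, 726 and 780 to 478, 464 and 530 in siSTAT3 cells. None of the groups compared in these sentences overlapped. With the median over probe sets, the rise of SREBF1 and ACACB in siSCM cells and of ACACA and ACACB in siSTAT3 cells did not pass.

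In siSTAT3 cells alone INSIG1 (0.49), HMGCS1 (0.42), FDPS (0.40), ACAT2 (0.33) and NSDHL (0.33) also passed as higher at 24 h and INSIG2 as lower (-0.40). In siSCM cells the same differences were 0.25, 0.19, 0.35, 0.10, 0.03 and -0.25, and none passed. Whether they differ between the siRNAs was not tested. PMVK (0.31) passed in siSCM cells, and EBP rose in both, by 0.27 and 0.33. Of the 23 fits that left out 1 array, the PMVK call held in 2, the EBP call in siSCM cells in 3, the INSIG2 call in 11 and the NSDHL call in 15. In siSTAT3 cells the MSMO1 call held in 18, the FDPS call in 19 and the EBP call in 21. In siSCM cells the HSD17B7 call held in 19 and the ACACB call in 20. That ACACB call was also lost with limma-trend (adjusted p = 0.0739). With the median over its probe sets EBP differed by 0.16 in siSCM cells (adjusted p = 0.523) and 0.09 in siSTAT3 cells (adjusted p = 0.777).

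**Figure D4:**
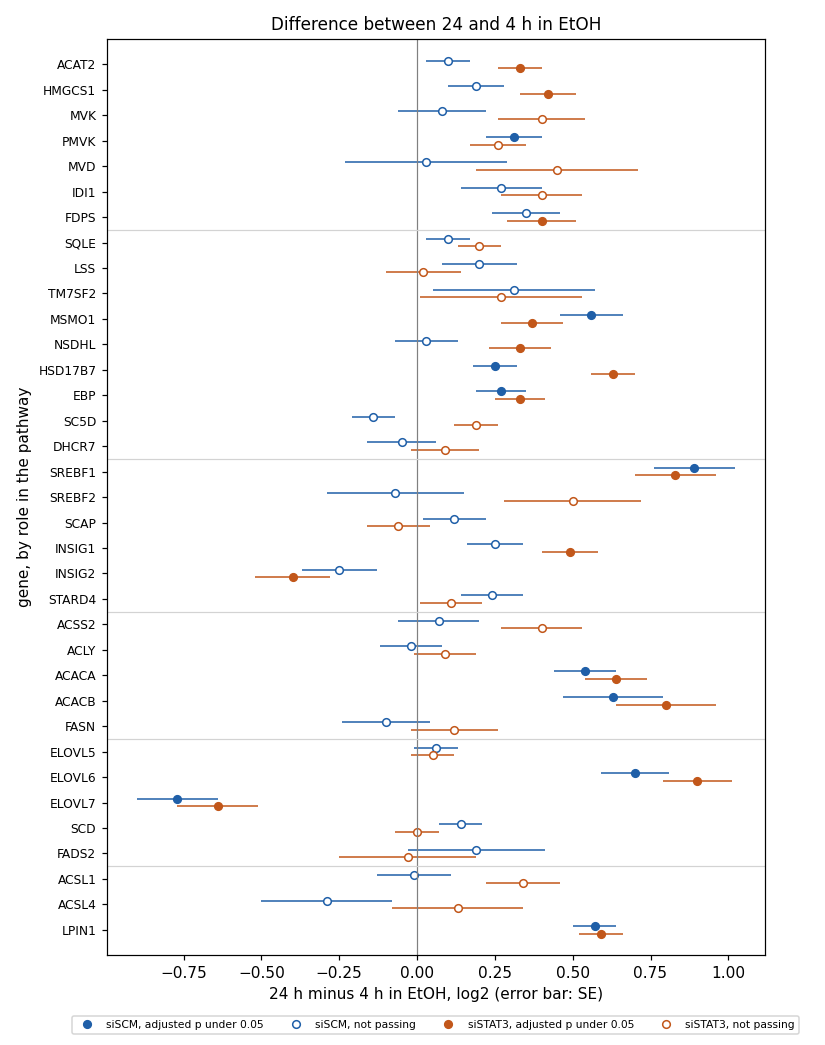
Log2 difference between 24 and 4 h in EtOH for the 35 genes in siSCM (blue) and siSTAT3 cells (orange), with error bars of 1 SE and filled points where the adjusted p was under 0.05. The largest rises are SREBF1 at 0.89 in siSCM cells and ELOVL6 at 0.90 in siSTAT3 cells, and ELOVL7 lies left of 0 in both.

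Within groups the 35 genes did not vary together from array to array. After each group's mean was removed, the median Pearson correlation over the 595 pairs of genes was 0.01 over the 23 arrays, which is a description of arrays that share their scaling.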

How the data were processed

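The authors hybridised RNA of each sample to 1 Affymetrix U133 Plus 2.0 array and deposited MAS5 intensity values, on a linear scale and scaled per array by them. The scaling target and the version of the software are not given in the sources used here. The 35 genes and all gene lists were chosen with earlier results of these data known. Signals were log2 transformed with nothing added and fitted with limma 3.58.1 in R 4.3.3 on all 54675 probe sets of all 23 arrays, with 1 mean per group and 15 residual degrees of freedom. Benjamini-Hochberg adjustment ran over all probe sets, and a call is an adjusted p under 0.05. Of the probe sets, 41097 have 1 gene symbol in the platform annotation, and the brightest of a gene's probe sets by mean log2 signal stands for it. Counting, naming and figures used those probe sets. Array values are printed for SREBF1, SREBF2, SCAP, INSIG1 and INSIG2 and for up to 6 genes per comparison with the largest called differences. The fits were tested on simulated data. Alternatives were 16 units added before log2, a mean of at least 100 units, quantile normalization, the replicate number as a block, fits on fewer groups, limma-trend, the median over a gene's probe sets, the limits that the methods give, and each array left out in turn. The number of arrays per group limits the precision of every difference. Some genes of the pathway are not reported here.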

Additional observations from a re-analysis of the deposited data

Results flagged for a closer look

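The effect of 24 h of TAM differed between siSTAT3 and siSCM cells for 14 of the 35 genes by the interaction term in limma, with Benjamini-Hochberg adjustment over all probe sets. The log2 interaction (siSTAT3 minus siSCM) was 1.63 for LSS, 1.34 for LPIN1, 1.25 for HMGCS1, 1.03 for DHCR7 and 0.90 for SCD, with adjusted p between 1.5e-06 and 0.000857. It was 0.83 for ELOVL6, 0.77 for ACAT2, 0.75 for INSIG1, 0.75 for ACLY and 0.63 for SQLE, with adjusted p between 0.000289 and 0.00764. The values for IDI1 (0.75), FDPS (0.64) and EBP (0.48) lay nearest the threshold, with adjusted p of 0.0337, 0.0397 and 0.0382. HSD17B7 was the 1 gene with a negative interaction (-0.45, adjusted p = 0.0186). One side of each difference rests on 2 arrays, those of siSTAT3 cells with TAM for 24 h.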

How the results depend on the processing

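Of 66 calls of single genes over the 10 comparisons, 35 held under every alternative that kept all arrays, 43 held with any 1 array left out, and 0 reversed. Counts of called genes changed as follows, and the shares of all genes under these settings were not taken. For TAM in siSCM cells at 4 h (2 called) the count was 0 in the fit on fewer groups, 4 with the median over probe sets and 0 with the methods' limits (unadjusted p under 1e-04 and an absolute log2 difference over 0.5), and 1 to 2 with 1 array left out. At 24 h (15) it was 8 with those limits and 12 to 15 with 1 array left out. For TAM in siSTAT3 cells at 4 h (2) it was 1 with fewer groups, 1 with the limits and 1 to 2 with 1 array left out. At 24 h (3) it was 8 with the filter at 100 units, 8 with limma-trend, 1 with fewer groups, 1 with the limits and 1 to 3 with 1 array left out, the lowest without siSTAT3 TAM 24 h replicate 3. The interaction at 4 h (0) was 2 with the filter, 2 with limma-trend and 0 to 0 with 1 array left out. At 24 h (14) it was 9 with the limits, and 10 to 16 with 1 array left out. For knockdown in EtOH at 4 h (3) the count was 8 with the filter, 7 with limma-trend, 0 with fewer groups, 0 with the limits and 1 to 4 with 1 array left out, the lowest without siSTAT3 EtOH 4 h replicate 1. At 24 h (2) it was 0 with fewer groups, 0 with the limits, 4 with the median over probe sets and 2 to 2 with 1 array left out. For 24 against 4 h in EtOH in siSCM cells (10) it was 6 with fewer groups, 6 with the limits and 6 to 10 with 1 array left out, the lowest without siSCM EtOH 24 h replicate 2. In siSTAT3 cells (15) it was 5 with the limits and 10 to 15 with 1 array left out, the lowest without siSTAT3 EtOH 24 h replicate 2. The fewer groups and omitted arrays leave fewer residual degrees of freedom, and the cause of the other changes was not tested. An omitted siSTAT3 TAM 24 h array leaves 1, which is assumed to vary like the other groups.

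Arrays with the same replicate number were slightly more alike than others. Their deviations correlated at a median of 0.0363, against -0.0244 for arrays with other numbers. Of 77 same-number pairs 16 exceeded 0.1, and 14 of 23 arrays were closest to their own number. The main fit did not use the numbers. With the replicate block the counts of called genes were 2, 14, 2 and 2 for the TAM effects, in the order above, 0 and 12 for the interactions, 2 and 2 for knockdown, and 9 and 16 for 24 against 4 h. Calls lost under it were the ACACA fall (adjusted p = 0.0524), the STARD4 rise (0.0717), the FDPS and EBP interactions (0.0508 and 0.0578), HSD17B7 under knockdown at 4 h (0.0577) and the EBP rise in siSCM cells from 4 to 24 h (0.0649). Dim probe sets (ACACB, MVD, TM7SF2) had the widest errors for their role, with SE of 0.16 to 0.40.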
